A study of Onthophagus taurus with 60 samples.

Results

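In the epidermis of male prepupae of the dung beetle Onthophagus taurus, 205 transcripts had a higher mean level in the abdominal support structures than in each of 7 other regions of the body wall. They were chosen from the 21668 protein-coding rows of the deposited table by their measured levels. A member had a mean of at least 10 CPM (counts per mega-count of the column total) in the support structures, at least 4 times the mean of every other tissue. Its mean in the thoracic horn also had to stay under 2 times the highest of the 6 remaining tissues, which left out 14 transcripts that met the level and fold bounds. Of the 21668 rows, 4740 reached 10 CPM in the support structures. Because the level in the support structures made the choice, the height of the members there is a description and is not tested. A gene was found for 151 of the 205 transcripts, giving 140 genes, and none for the other 54.

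Support structures are paired outgrowths of the abdominal body wall that a scarab pupa carries, here taken from several abdominal segments. In other beetles, such as Tenebrio and Tribolium, paired abdominal outgrowths called gin traps depend on wing genes, and abdominal, prothoracic and mesothoracic outgrowths are studied as serial counterparts of the wing. In the prepupa the epidermis has come away from the larval cuticle and lays down the cuticle of the pupa, so that regional differences in RNA at this stage accompany the shaping of the pupal body. With 1 exception the member genes carry a locus number in place of a name, so no role is given to any of them here. The exception, MR, has a symbol that appears shortened.

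The 48 libraries came from 8 tissues with 6 biological replicates each. The tissues were the support structures, the thoracic horn, the anterior, posterior and carinated margins of the prothorax, the dorsal prothorax, the wing of the mesothorax (T2 wing) and the dorsal head. All were males of a single stage, and the labels give no treatment, genotype or strain. Dorsal prothorax and dorsal head were included as contrasts with no published tie to wings, per the series text. Library totals ran from 14.87 to 21.41 mega-counts (M) in the support structures, from 13.11 to 19.58 M in the horn, anterior margin, posterior margin and dorsal prothorax, from 28.53 to 37.86 M in wing and carinated margin, where both sides were summed, and the head was deepest, at 74.83 to 87.27 M. A count of 0 over a tissue's 6 libraries therefore allows up to 0.0332 CPM in the dorsal prothorax, the shallowest tissue, and 0.00614 CPM in the head, for counting error only. Neither the tissue labels nor admixed cell types were checked against marker genes here. In such bulk samples, fewer cells of a type and less RNA per cell cannot be told apart.

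Together the members took up 3.16% of all counts in the support structures and between 0.0657% (wing) and 0.112% (carinated margin) elsewhere. Their summed level ran from 24059 CPM in replicate 6 to 40884 CPM in replicate 3 of the support structures, with a median of 31534 CPM. In the other 42 libraries the sum lay between 611 and 2133 CPM, and the highest of these was replicate 2 of the posterior margin, where the other replicates held 622 to 1209 CPM. These libraries and those of the support structures did not overlap in the summed level, which the choice of members brings about.

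**Figure D1:**
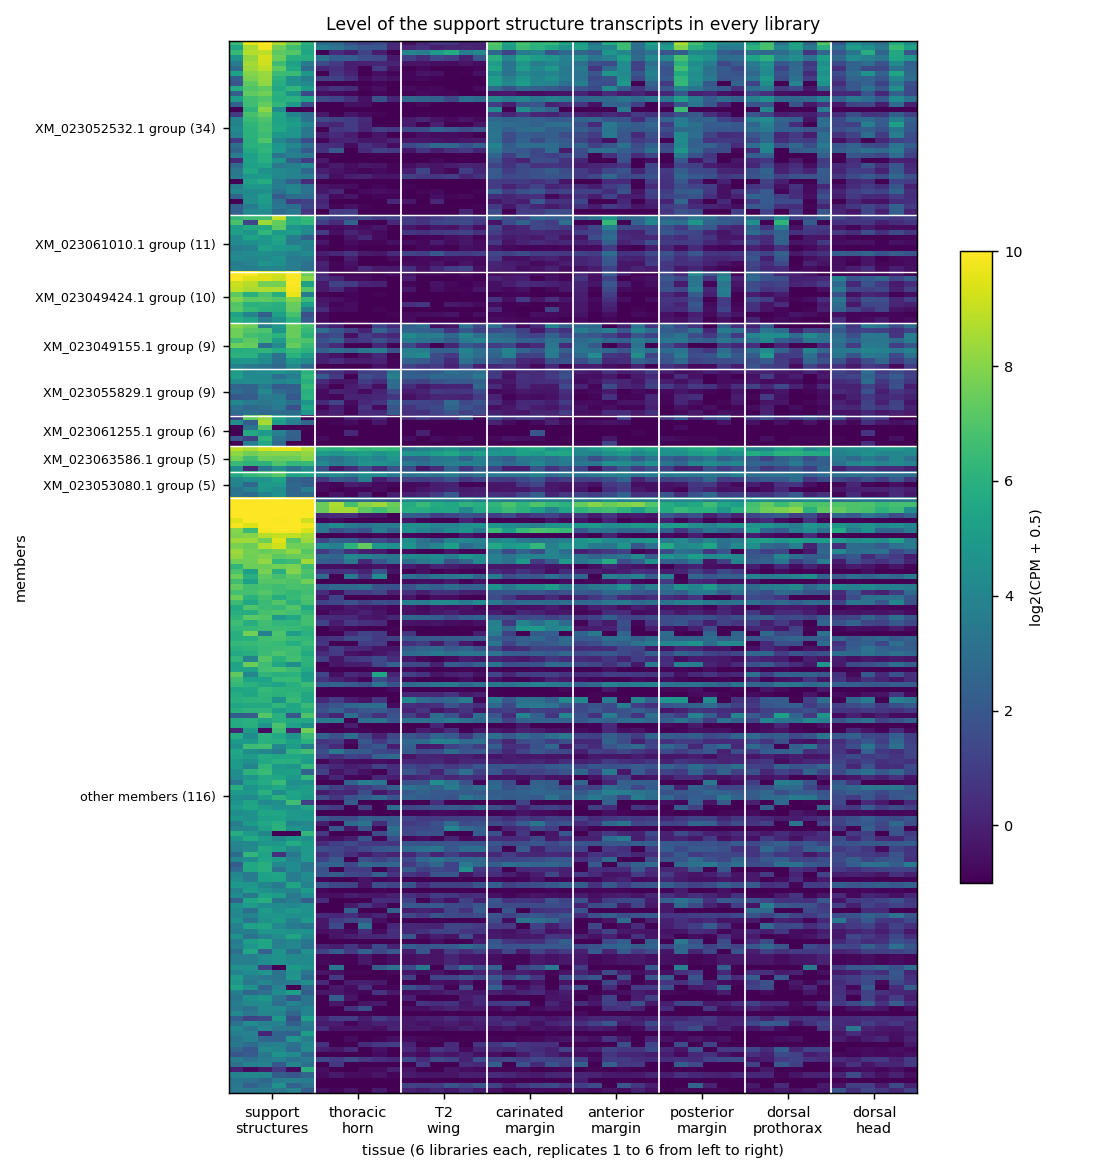
Level of each of the 205 members (rows) in each of the 48 libraries (columns, 8 tissues with replicates 1 to 6 from left to right), as log2(CPM + 0.5) in colour. Rows are ordered by groups of transcripts that varied together, named by their most abundant member with the number of members in brackets; the support structures are bright in nearly all rows, and blocks of rows brighten together in single libraries.

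Most members were of modest abundance. In the support structures 7 reached 1000 CPM, 37 lay between 100 and 1000, 69 between 30 and 100, and 92 between 10 and 30. CPM is not divided by transcript length, so the order of transcripts by CPM is not an order of abundance per molecule. The mean in the support structures was at least 10 times that of the highest other tissue for 104 members, at least 100 times for 25 and at least 1000 times for 3, with a median of 10.1 times. At the fold bound, XM_023044814.1 (4.02 times), XM_023060393.1 (4.06) and XM_023045015.1 (4.10) lay just inside, and XM_023059116.1 (3.999), XM_023047040.1 (3.99) and XM_023058686.1 (3.92) just outside. At the level bound, XM_023047499.1 (10.01 CPM), XM_023051220.1 (10.02) and XM_023058729.1 (10.09) lay inside, and XM_023045763.1 (9.88), XM_023055251.1 (9.64) and XM_023054274.1 (9.61) outside.

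For 134 members every library of the support structures lay above every library of all other tissues, beside 5.17% of the 4740 rows at 10 CPM or more. The rule used this contrast, so nothing is read from the difference. For the other 71 members the groups overlapped in at least 1 library. In 39 members the mean was under 1 CPM in each of the 7 other tissues. No single tissue was the runner-up: the second-highest mean was in the dorsal head for 39 members, the wing for 34, the dorsal prothorax for 32, the posterior margin for 30, the carinated margin for 29, the horn for 21 and the anterior margin for 20. The median over members of the tissue mean was 36.6 CPM in the support structures, 0.587 CPM in the horn, 0.727 CPM in the wing and 1.18 to 1.58 CPM in the other 5 tissues. The horn was the lowest tissue for 70 members and the wing for 51. This order depended on the scaling: with TMM factors, which correct for a few transcripts taking up a large share of counts and were 0.531 to 0.639 in the horn against 0.815 to 1.42 elsewhere, the horn was lowest for 51 members and the wing for 59. On the TMM scale the horn median was 1.02 CPM, within the 0.657 to 1.76 CPM of the other 6 tissues outside the support structures.

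XM_023057229.1 (LOC111423847) had the highest mean of all members. It stood at 3310, 4098, 6021, 6199, 5838 and 3282 CPM in support structure replicates 1 to 6. The dorsal prothorax came next, with 15.6 to 21.9 CPM and a mean 252 times lower, and the horn held 3.6 to 6.94 CPM. Every one of the 42 other libraries was thus far under the lowest of the 6. XM_023055853.1 (LOC111422637) was the steadiest of the abundant members, at 5009, 4711, 5700, 3505, 4274 and 4267 CPM. It was well measured elsewhere too, at 111 to 396 CPM in the horn, 134 to 254 CPM in the anterior margin and 46.8 to 83.6 CPM in the wing, and its ratio to the horn was 18.8. XM_023055310.1 (LOC111422095) read 2218, 3111, 2732, 2420, 1138 and 2863 CPM, with replicate 5 the lowest. Its next tissues were the horn, at 215 ± 108 CPM (SD, n = 6), and the dorsal prothorax, at 168 ± 74.7 CPM, whose ranges overlapped.

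XM_023047667.1 (LOC111415799) stood at 1109, 1493, 2348, 1596, 1638 and 1800 CPM in the support structures. All other tissues were under 10 CPM in every library, with the head highest at 2.57 to 8.52 CPM. XM_023044080.1 (LOC111413190) stood at 895, 681, 1345, 1392, 1025 and 941 CPM. It was nearly level across the other tissues, with means between 11.7 CPM in the horn and 24.6 CPM in the anterior margin. XM_023063586.1 (LOC111428170) stood at 481, 388, 607, 771, 802 and 429 CPM, and the horn followed with 58.5 to 87.6 CPM. MR (XM_023044477.1) stood at 187, 60.7, 156, 109, 144 and 101 CPM, against 5.25 to 21.8 CPM in the dorsal prothorax, the next tissue.

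The abundant members also included some whose replicates spread widely. XM_023049424.1 (LOC111417204) read 1815, 1001, 694, 629, 2223 and 172 CPM in replicates 1 to 6, and XM_023054425.1 (no gene matched) 1049, 730, 735, 549, 1778 and 267 CPM. XM_023057704.1 (no gene matched) read 560, 447, 207, 209, 1634 and 39.2 CPM. All 3 were highest in replicate 5 and lowest in replicate 6, and outside the support structures none exceeded 18.8 CPM in any library. XM_023044297.1 (LOC111413360) followed another order, at 259, 89.0, 906, 1775, 1200 and 637 CPM. Its lowest replicate fell within the range of the carinated margin, at 35.5 to 116 CPM, so the groups overlapped. XM_023052532.1 (LOC111419682), at 90.1, 773, 1597, 407, 193 and 66.4 CPM, overlapped with the posterior margin, which held 16.2 to 401 CPM.

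**Figure D2:**
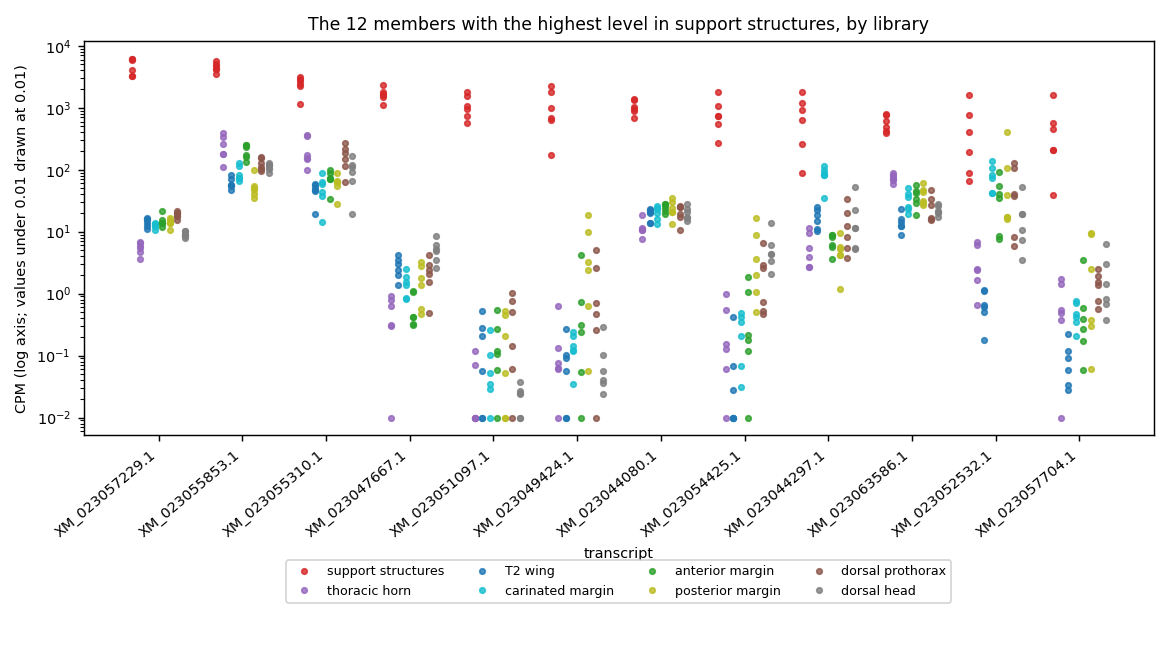
CPM (log axis, values under 0.01 drawn at 0.01) of the 12 members with the highest mean in the support structures, 1 point per library, coloured by tissue with 6 libraries each. For 10 of the 12 the red points of the support structures lie above all others; XM_023044297.1 and XM_023052532.1 overlap with the carinated or the posterior margin.

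By ratio rather than level, XM_023051097.1 (no gene matched) led, at 732, 1526, 1070, 945, 1784 and 566 CPM in the support structures. Its next tissue was the dorsal prothorax, with 38 counts over 6 libraries (0.419 CPM) and a ratio of means of 2635. XM_023063584.1 (LOC111428168) stood at 42.8, 39.0, 104, 116, 93.9 and 52.1 CPM against 8 counts in the wing, a ratio of 1836. XM_023052571.1 (no gene matched) stood at 230 to 530 CPM, 1485 times the dorsal prothorax with its 23 counts. Neighbouring ratios in this order cannot be separated, since the 95% counting intervals of the 3 ratios of summed counts were 1893 to 3672, 917 to 4187 and 981 to 2322. XM_023048657.1 (no gene matched), at 45.4 to 83.1 CPM, and XM_023053671.1 (no gene matched), at 75.8 to 222 CPM, followed with ratios of 508 and 437. XM_023060334.1 (no gene matched) met the rule through a single animal: replicate 3 held 128 CPM, replicate 2 held 8.79 CPM and the other 4 held 0 counts. Without replicate 3 its mean was 1.76 CPM, under the bound of the rule. Outside the support structures it had 3 counts, all in the posterior margin, which gives a ratio of summed counts of 806 with an interval of 262 to 3727.

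Members varied more between replicates of the support structures than other transcripts did. The coefficient of variation (CV, the SD over the mean of the 6 libraries) had a median of 57.4% over the 205 members and 21.9% over all 4740 rows at 10 CPM or more. Members were chosen on the mean of these same libraries, so the 2 medians are a description. The CV exceeded 100% in 38 members and was under 20% in 12. Among the 12 steadiest, XM_023045072.1 (LOC111413927) held 77.1, 83.2, 91.9, 92.7, 85.0 and 71.3 CPM, a CV of 9.98%. XM_023048357.1 (LOC111416364) held 196 to 284 CPM with a CV of 12.5%, and its dorsal prothorax mean of 56 CPM put it close to the fold bound, at 4.45 times. A single library supplied over 50% of the summed level of 23 members, and 11 members had 0 counts in at least 1 library of the support structures. Leaving out each replicate number in turn, 150 of the 205 met the rule every time.

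The highest library was replicate 3 for 71 members and replicate 4 for 41. Over all 4740 rows replicate 4 was the highest most often, for 33.5% of them, and replicate 3 for 24.3%, compared with 34.6% of members for replicate 3. Replicate 6 was the lowest library for 53 members, and replicates 1 and 2 for 43 each.

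To describe how members varied together, each transcript's deviations from its tissue means over the 48 libraries, on the scale log2(CPM + 0.5), were correlated and clustered at an average r of 0.5. Libraries of a tissue share their dissection and depth, and same-numbered libraries of the 7 tissues other than the head deviated together over the whole table. The correlations are therefore a description without a test. The groups were formed on these same correlations, so a high r within a group follows in part from how it was formed. Over all members the median pairwise r was 0.0652, so there was no single common pattern. In all, 8 groups of at least 5 transcripts held 89 of the members, and the other 116 fell outside them.

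The group of XM_023052532.1, with 34 transcripts, was the largest. Its summed level was 565, 4655, 7769, 2078, 1181 and 511 CPM in support structure replicates 1 to 6, and 32 of the 34 were highest in replicate 3. It was not limited to the support structures, reaching 1449 CPM in replicate 2 of the posterior margin, 624 CPM in replicate 1 of the carinated margin and 582 CPM in replicate 2 of the dorsal prothorax. In replicates 1 and 6 the support structures thus held no more than the highest libraries of those tissues, and the groups overlapped. Wing and horn were low in this group, with sums of 32 to 73.5 CPM in the 6 wing libraries and 7.97 to 47.3 CPM in the 6 horn libraries. Every one of these 12 libraries lay below the 202 to 624 CPM of the carinated margin, while the lowest libraries of the anterior margin (66.3 CPM), the dorsal prothorax (54.8 CPM) and the head (57.2 CPM) overlapped with the wing. Within the support structures the median pairwise r of the 34 was 0.918 over 6 libraries, and it was 0.587 over the other 42. Because the 34 moved as a block, they do not count as 34 separate observations.

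The group of XM_023049424.1 held 10 transcripts and gave 4669, 2964, 2472, 2169, 8095 and 763 CPM in the support structures. All 10 were highest in replicate 5 and lowest in replicate 6. Outside the support structures the sum was at most 63.8 CPM, reached in replicates 3 and 5 of the posterior margin, and it was 0.613 to 2.25 CPM in the wing. The 9 transcripts of the XM_023055829.1 group followed replicate 6 instead. They summed to 494 CPM there and to 80.8 to 135 CPM in the other 5 support structure libraries, and all 9 were highest in replicate 6. The horn of replicate 6 was high as well, at 51.8 CPM against 2.36 to 9.66 CPM in the other horn libraries.

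The summed level of the 9 transcripts of the XM_023049155.1 group was lowest in replicate 4 in 6 tissues. Their sum in the support structures was 1083, 900, 447, 244, 1026 and 576 CPM, and replicate 4 held 19.4 CPM in the wing, 13.7 in the carinated margin, 14.8 in the anterior margin, 13.2 in the posterior margin and 14.0 in the dorsal prothorax. In the horn replicate 6 was the lowest, at 7.93 CPM, and in the head replicate 5, at 25.7 CPM. The summed level of the 5 transcripts of the XM_023053080.1 group showed the reverse, with replicate 4 the highest in all 7 tissues other than the head. In the support structures it was 255 CPM there against 63.9 to 195 CPM in the other 5 replicates. The group of XM_023061255.1, with 6 transcripts, ran from 5.78 CPM in replicate 6 to 945 CPM in replicate 3 of the support structures and stayed under 5 CPM in all 42 other libraries. The group of XM_023061010.1, with 11 transcripts, was highest in replicate 4 of the support structures, at 1056 CPM, and reached 154 CPM and 133 CPM in replicate 3 of the anterior margin and of the dorsal prothorax. The group of XM_023063586.1, with 5 transcripts, was the steadiest, at 754 to 1340 CPM in the support structures.

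**Figure D3:**
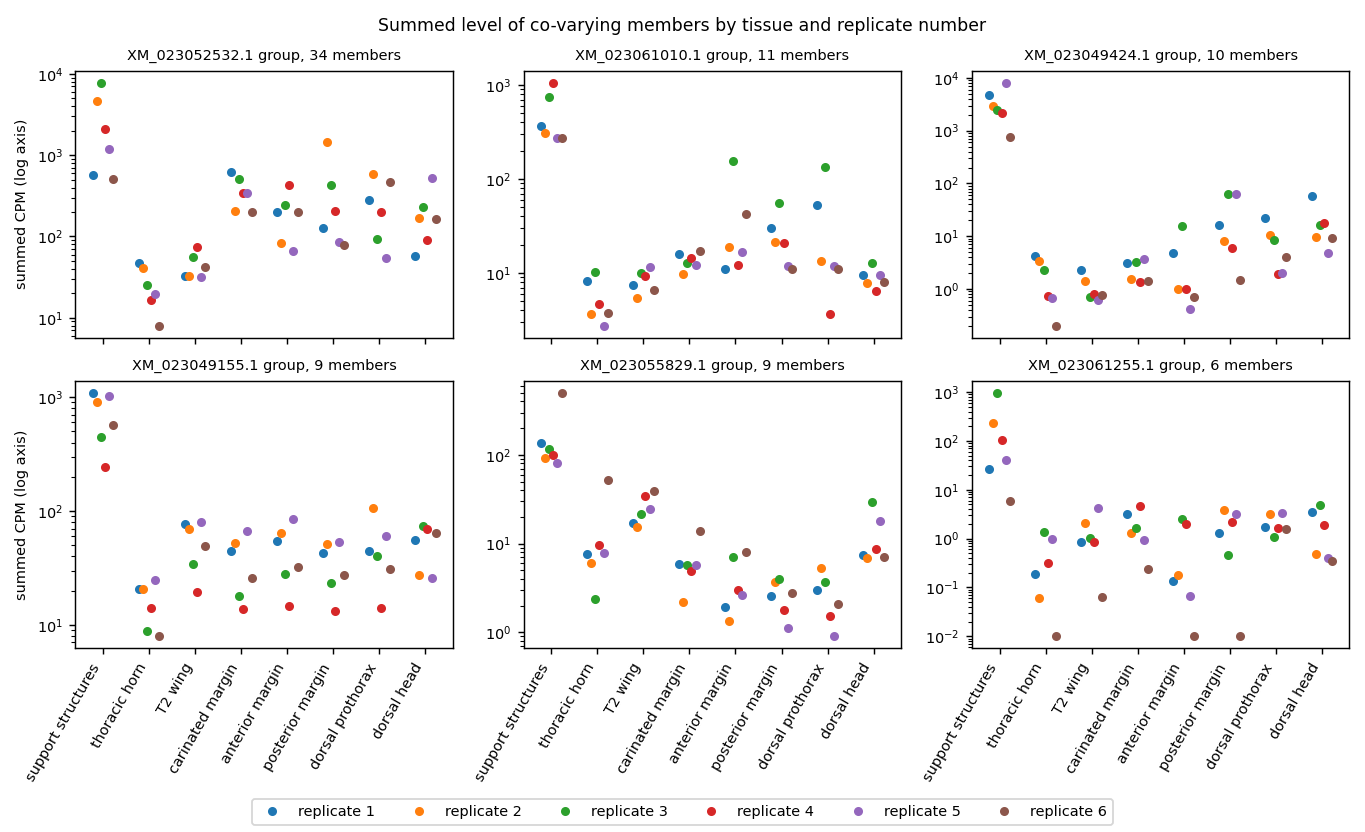
Summed CPM (log axis) of 6 of the groups of members that varied together, by tissue, with 1 point per library coloured by replicate number; sums of 0 are drawn at 0.01. In the XM_023052532.1 panel the wing and the horn lie below the carinated margin, and in the XM_023049155.1 panel replicate 4 is the lowest point in 6 tissues. In the XM_023055829.1 panel replicate 6 is the highest point in support structures, horn, wing, carinated margin and anterior margin.

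Levels outside the support structures were compared next, in contrasts that the choice of members did not use. The wing and the carinated margin, as wing-related tissues, were each set against the dorsal prothorax and the dorsal head, and 201 of the 205 members could be tested. A call means an adjusted p under 0.05 in edgeR's quasi-likelihood test, with adjustment over all 15239 tested transcripts. A filter on low counts can let a member pass through the support structures alone, so many members were tested at low levels.

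A larger share of members than of all transcripts was lower in the wing than in either contrast tissue. In the wing against the dorsal prothorax, 54 members were lower, 26.9% of those tested, where 11.6% of all transcripts were lower. In the same contrast 26 members were higher, 12.9%, where 14.3% of all transcripts were higher. Against the dorsal head 71 members were lower in the wing, 35.3% beside 16.5% of all transcripts, and 15 were higher, 7.46% beside 12.2%. The median log2 difference of the members was -0.29 against the dorsal prothorax and -0.52 against the head, where that of all transcripts was 0.01 in both. The wing libraries are shared by the 2 contrasts. Of the 54 members lower against the dorsal prothorax 25 belonged to the XM_023052532.1 group, 6 to the XM_023061010.1 group and 5 to the XM_023049424.1 group. Of the 71 lower against the head 26 belonged to the XM_023052532.1 group and 8 to the XM_023049424.1 group. Without support structures and horn in the fit and its filter, 182 members were testable, and 53 of them were lower in the wing than in the dorsal prothorax, 29.1% beside 12.5% of all transcripts. In that fit 69 were lower than in the head, 37.9% beside 17.4%. With the 2 tissues of the wing and dorsal prothorax fitted alone, 125 members were testable and 24 were lower, 19.2% beside 12.5% of all transcripts.

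The largest deficits in the wing were in transcripts with no count there. XM_023061471.1 (no gene matched) was at 0 counts in every wing library, at 0 to 24.1 CPM in the dorsal prothorax and at 0.761 to 9.47 CPM in the head, which makes it at least 714-fold and 259-fold lower in the wing (edgeR, adjusted p = 0.000129 and 0.000316). The bounds set 3 counts over the wing libraries against the counts of the other tissue. XM_023044567.1 (LOC111413554) also had 0 counts in the wing, at least 155.5-fold lower than in the dorsal prothorax (edgeR, adjusted p = 0.00114) and 183-fold lower than in the head (adjusted p = 0.000427). Summed over its gene, the deficit was smaller than these bounds, at -5.08 and -5.87 log2 units (edgeR, adjusted p = 5.2e-06 and 3.1e-07). Both also had 0 counts in at least 1 library of the dorsal prothorax, so single libraries overlapped with the wing. With wing and dorsal prothorax fitted alone neither passed the filter on low counts, nor did XM_023044567.1 with wing and head alone. Without support structures and horn in the fit both kept the call against the dorsal prothorax (edgeR, adjusted p = 0.00044 and 0.0022). Among the more abundant members XM_023052532.1 held 0.703 ± 0.373 CPM in the wing, 54.4 ± 50.8 CPM in the dorsal prothorax and 18.9 ± 18.0 CPM in the head (SD, n = 6), and fell by 6.11 ± 0.98 and 5.08 ± 0.93 log2 units (edgeR, adjusted p = 5.83e-06 and 3.9e-05). XM_023062720.1 (LOC111427530), of the same group, held 0.644 ± 0.165 CPM in the wing against 50.9 ± 36.8 CPM in the dorsal prothorax, and fell by 6.14 ± 0.91 log2 units (edgeR, adjusted p = 1.51e-06). XM_023055310.1 fell by a smaller 1.72 ± 0.40 log2 units (edgeR, adjusted p = 0.00102), from 168 ± 74.7 to 46.4 ± 14.4 CPM. The 3 transcripts from XM_023052532.1 on are given as examples by level, chosen after their values were seen.

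The means were also compared without the test. Of the 118 members at 1 CPM or more in the dorsal prothorax, 30 (25.4%) had a wing mean under 10% of that level, beside 2.24% of all 11318 such rows. Of the 30, 22 belonged to the XM_023052532.1 group. In CPM 12 of the 30 were under 10% of the dorsal prothorax in the horn as well. No share over all rows was set beside these 12, so nothing is read from them. TMM factors were 0.531 to 0.639 in the horn and 1.16 to 1.35 in the dorsal prothorax, so TMM scaling would raise the horn relative to the dorsal prothorax.

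A smaller set of members went the other way. XM_023047007.1 (no gene matched) held 2.01 to 14.9 CPM in the wing against 0 counts in all 6 dorsal prothorax libraries, at least a 165.5-fold excess (edgeR, adjusted p = 0.000471). XM_023049352.1 (LOC111417145) was at most 1.09 CPM in the wing and also passed, at least 12.45-fold higher (edgeR, adjusted p = 0.0485). With all transcripts of its gene summed the difference was only 0.53 log2 units (edgeR, adjusted p = 0.0053), and with the first column of each pair alone it was 0. It lost the call with the replicate number as a block (adjusted p = 0.065) and without any one replicate (edgeR, adjusted p = 0.064 to 0.12). With wing and dorsal prothorax fitted alone it did not pass the filter on low counts. Of the 26 higher members 7 belonged to the XM_023055829.1 group, whose median member stood at 2.56 CPM in the wing but at 0.148 CPM in the dorsal prothorax. Its leading transcript XM_023055829.1 (LOC111422620) held 5.53 ± 1.74 CPM in the wing against 0.433 ± 0.168 CPM in the dorsal prothorax (SD, n = 6), higher by 3.77 ± 0.56 log2 units (edgeR, adjusted p = 1.42e-06). Against the head the members of largest fold, XM_023064724.1 and XM_023052571.1 (no gene matched for either), had 20 and 20.6 counts in the wing and 0 and 2 counts in the head. Both passed the filter on low counts only through tissues outside the contrasts, the support structures or the horn, so their calls are not read as differences.

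In the carinated margin the share of lower members was close to that of all transcripts, and the difference between wing and carinated margin was not tested. Against the dorsal prothorax 22 members were higher, 10.9% beside 6.56% of all transcripts, and 7 were lower, 3.48% beside 4.04%. Against the head 22 were higher, 10.9% beside 13.4%, and 30 lower, 14.9% beside 16.2%. The median log2 difference of the members was 0.25 and -0.26, beside 0.03 and 0.02 for all transcripts. Without replicate 5 the 22 against the dorsal prothorax became 14, 6.93% beside 4.73% of all transcripts. Without any one replicate the 7 lower became 1 to 3, 0.495% to 1.49% beside 2.56% to 3.58%. Against the head, 14 were higher without replicate 1, 6.93% beside 10.2% of all transcripts. Without replicate 3, 19 were lower, 9.5% beside 12.6%. With total counts in place of TMM 29 were higher and 20 lower, 14.4% and 9.95%. All transcripts then stood at 19.1% and 9.27%, so their order turned as well.

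Single members were much higher in the carinated margin than in the contrast tissues. XM_023045072.1 held 19.2 ± 9.32 CPM in the carinated margin, 0.553 ± 0.607 CPM in the dorsal prothorax and 0.191 ± 0.114 CPM in the head (SD, n = 6), higher by 5.32 ± 0.81 and 6.37 ± 0.83 log2 units (edgeR, adjusted p = 1.23e-05 and 1.3e-07). In the wing it had 0 counts. XM_023044297.1 held 83.9 ± 27.1 CPM, against 14.0 ± 11.3 CPM in the dorsal prothorax and 18.2 ± 18.2 CPM in the head, higher by 2.79 ± 0.58 and 1.95 ± 0.56 log2 units (edgeR, adjusted p = 0.000898 and 0.00686). Both were named after their values in these contrasts were seen. By size of fold, XM_023047007.1 and XM_023049352.1 led again against the dorsal prothorax, at least 26.8-fold and 31.8-fold higher (edgeR, adjusted p = 0.0211 and 0.0253). For XM_023049352.1 the sum over its gene differed by 0.74 log2 units only (edgeR, adjusted p = 0.00043). The first lost the call without replicate 3, 4 or 5 (edgeR, adjusted p = 0.073 to 0.081). The second lost it without any one of replicates 1 to 5 (edgeR, adjusted p = 0.056 to 0.067). With carinated margin and dorsal prothorax fitted alone neither of these passed the filter on low counts.

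In the lower direction against the dorsal prothorax XM_023052571.1 had 3 counts in the carinated margin and 23.2 in the dorsal prothorax, and its call is likewise not read as a difference. XM_023049424.1 fell by 3.09 ± 1.04 log2 units (edgeR, adjusted p = 0.0465), from 1.52 ± 1.97 to 0.144 ± 0.0727 CPM (SD, n = 6). It missed the threshold in the fit of 6 tissues (adjusted p = 0.086) and without any one of replicates 1 to 5 (edgeR, adjusted p = 0.056 to 0.31). With carinated margin and dorsal prothorax fitted alone it did not pass the filter on low counts.

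Against the head XM_023044814.1 (LOC111413729) and XM_023060956.1 (LOC111426441) were at 0 counts in the head and at least 1642-fold and 593-fold higher in the carinated margin (edgeR, adjusted p = 0.0196 and 0.00106), although both had 0 counts in at least 1 carinated margin library. With carinated margin and head fitted alone neither passed the filter on low counts. Without replicate 1, 3 or 4 XM_023044814.1 missed the threshold (edgeR, adjusted p = 0.051 to 0.054). With all transcripts of its gene summed it reversed and fell by 0.98 log2 units in the carinated margin (edgeR, adjusted p = 0.0034). XM_023058630.1 (no gene matched) fell by 5.16 ± 1.04 log2 units, from 2.09 ± 2.53 CPM in the head to 0.0654 ± 0.0535 CPM (SD, n = 6; adjusted p = 0.000127, edgeR). XM_023049631.1 (LOC111417375) had 2 counts in the carinated margin and 181 in the head (edgeR, adjusted p = 0.000426). Without support structures and horn in the fit it did not pass the filter on low counts. With carinated margin and head fitted alone it fell by 5.1 log2 units (edgeR, adjusted p = 0.0011). Head libraries were deeper than all others and their replicate numbers did not match those of the other tissues, so which head library shares an animal with which other library is not known.

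**Figure D4:**
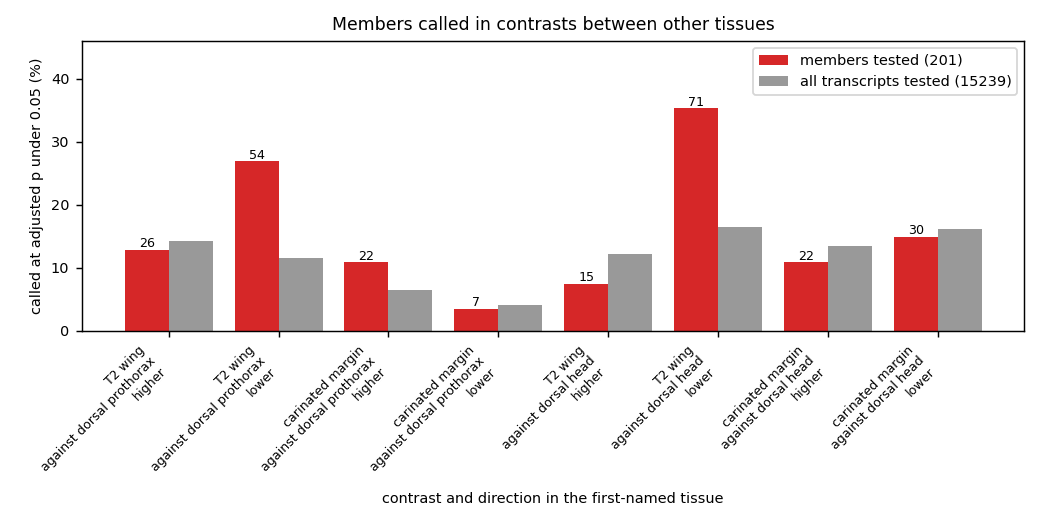
Share of the 201 tested members (red, number called printed above) and of all 15239 tested transcripts (grey) called higher or lower in the first-named tissue by edgeR at an adjusted p under 0.05. Members exceed all transcripts most in the 2 bars for lower in the wing, at 26.9% and 35.3%.

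For some members the gene as a whole did not share the pattern of the transcript. Expected counts divide reads among the transcripts of a gene, so the level of 1 transcript is less certain than the sum over its gene. Of the 140 member genes, 99 had all their matched transcripts as members and 41 had others. Only 15104 of the 23725 transcripts matched a gene, so any unmatched transcript of a gene is missing from these counts and sums. With all transcripts of a gene summed, 121 of the 140 genes met the rule, and of the 41 with other transcripts 22 did. In 8 of the 41 the gene's ratio was under 2, and in 13 the member supplied under 50% of the gene's level in the support structures.

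LOC111413729 had the most transcripts, 19, of which 2 were members. The members held 130 CPM in the support structures while the gene summed to 1780 CPM there and to 1896 CPM in the wing, a ratio of 0.939. Its member XM_023044814.1 was uneven as well, at 0, 68.0, 273, 19.2, 0 and 0 CPM in support structure replicates 1 to 6. LOC111426534 (gene ratio 0.723) and LOC111418730 (0.776) were likewise not raised as genes, both being higher in the head. MR, with 6 transcripts, kept a ratio of 2.97, since its other 5 transcripts added 179 CPM to the 126 CPM of the member. In the other direction LOC111427319 had both of its matched transcripts as members and a gene ratio of 227, and LOC111426643 both with 50.1. These transcripts all fell in the XM_023061255.1 group and were uneven between replicates. In support structure replicates 1 to 6 XM_023062412.1 of LOC111427319 read 21.1, 4.44, 382, 32.2, 12.8 and 5.78 CPM. XM_023061255.1 of LOC111426643 read 1.68, 158, 288, 44.7, 17.3 and 0 CPM. Of 64 other transcripts of member genes at 1 CPM or more in the support structures, 31 were at least 2 times as high there as in every other tissue, and 16 were matched or exceeded by some tissue.

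**Figure D5:**
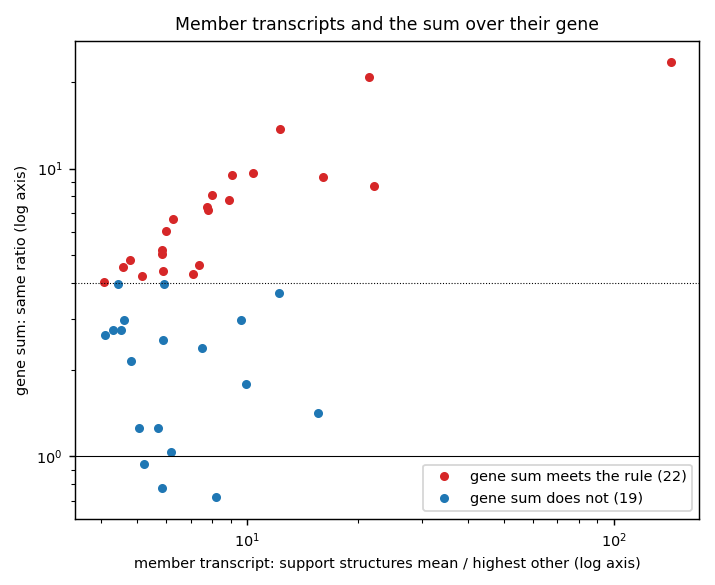
For the member genes with further transcripts in the table, the ratio of the support structures mean to the highest other tissue mean for the member transcript (x, log axis) and for the sum of all transcripts of the gene (y, log axis). The dotted line marks 4 and the solid line 1; 22 gene sums met the rule (red) and 19 did not (blue), with 3 under 1.

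Most placed member genes had no other member gene close by, and no share over all genes was set beside this. In the gene order of assembly IU_Otau_3.0, 136 member genes could be placed, and 14 of them formed 7 pairs with at most 2 protein-coding genes in between. In 2 of these pairs the genes were directly next to each other, LOC111418059 with LOC111418110 and LOC111418615 with LOC111421935. LOC111428168 and LOC111428170, both among the transcripts described above for ratio and level, formed another pair, as did LOC111422129 and LOC111422095. XM_023055360.1 of LOC111422129 held 343 CPM in the support structures, and like XM_023055310.1 of its neighbour its level fell from 33.9 ± 4.25 CPM in the dorsal prothorax to 13.0 ± 5.78 CPM in the wing (SD, n = 6), by 1.24 ± 0.33 log2 units (edgeR, adjusted p = 0.00448). There were 11 genes with 2 member transcripts each. XM_023053215.1 and XM_023053216.1 had equal levels in every library, within 0.01 CPM, so that reads cannot be assigned to one or the other.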

How the data were processed

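Per the labels' protocols, libraries came from Illumina's TruSeq Stranded mRNA kit after extraction with Qiagen RNeasy Plus Micro columns. The submitters' processing notes name RSEM 1.3.0, Trimmomatic 0.32, DESeq2 and Bowtie2 2.3.2, without their roles. No source used here states the genome build, the annotation or the strand setting. The deposited values are expected counts of 23725 transcripts in 60 columns, and 29.71% of them lay over 0.001 from a whole number.

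Wing and carinated margin have 12 columns each, without a side. Columns k and k+6 deviated together (r = 0.376 to 0.64 and 0.328 to 0.515, other columns at most 0.261 and 0.214) and were summed, giving 48 libraries. Same-numbered libraries of the 7 tissues other than the head also deviated together (r = 0.266 to 0.74 in all 21 tissue pairs), which pairs them. With the head r was -0.283 to 0.129, and up to 0.409 between libraries of different numbers. Levels are CPM of library totals.

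Counts were rounded, filtered with filterByExpr by tissue (minimum count 10, minimum total 15), scaled by TMM and tested with edgeR 4.0.16's quasi-likelihood F-test (limma 3.58.1, R 4.3.3) in 1 fit of 8 tissues, adjusted by Benjamini-Hochberg. The procedure was tested on simulated data. Alternatives were DESeq2 1.42.0, 2 scalings, other filters, fits of fewer tissues, a replicate block, single columns, gene sums and leaving out replicates. Intervals and floors (3 counts) cover counting error only.

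Named transcripts are the 12 of highest mean, the 6 of highest ratio, those at the bounds, the 1 with a symbol, and the 2 called members of largest fold per contrast and direction; others, such as leading members of groups that varied together and the steadiest members, were named after their values were seen. Members and lists were chosen with earlier results of these data known. Names and gene order came from a RefSeq table of IU_Otau_3.0, which matched 15104 of 23725 transcripts without their version suffix. Planned marker lists and sequence features were not analysed here, as the table gives neither descriptions nor sequences.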

Additional observations from a re-analysis of the deposited data

Results flagged for a closer look

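In the support structures XM_023060334.1 (no gene matched) had 1 library far from the others: replicate 3 held 128.3 CPM, replicate 2 held 8.79 CPM and 4 replicates held 0 counts. The gap between the highest library and the next was 93.2% of the whole range.

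XM_023057704.1 (no gene matched) also had 1 library apart, replicate 5 at 1634 CPM, with the other 5 between 39.2 and 560 CPM. Without replicate 5 its mean in the support structures was 292 CPM. Among 26 groups of 6 libraries looked at in this way these 2 were marked. The nominal rate of such marks by chance is about 1 in 20, and it was not checked on these values.

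Non-coding transcripts were outside the choice of members, and 8 of 2057 met the same rule. The most abundant, XR_002706416.1 (LOC111415616), held 2905, 1781, 2350, 2541, 2955 and 3653 CPM in support structure replicates 1 to 6 and 621 CPM in the horn, a ratio of 4.34. The other 7 had means of 11.3 to 41.6 CPM in the support structures.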

How the results depend on the processing

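Of the counts of called members, the 54 lower in the wing than in the dorsal prothorax fell to 24 of 125 testable members when these 2 tissues were fitted alone. That was 19.2%, beside 12.5% of all transcripts. The 22 higher and 7 lower in the carinated margin than in the dorsal prothorax became 13 and 3 in such a fit. These were 9.22% and 2.13% of testable members, beside 5.56% and 4.79% of all transcripts. The 7 became 11 with DESeq2, 5.47% beside 6.96%, and 4 with the first column of each pair, 1.99% beside 4.7%. Leaving out each replicate number gave 14 to 20 for the 22, 6.93% to 9.95% beside 4.14% to 5.98% of all transcripts. For the 7 it gave 1 to 3, 0.495% to 1.49% beside 2.56% to 3.58%. Against the head, leaving out each replicate gave 8 to 15 for the 15 higher in the wing, 14 to 20 for the 22 higher and 19 to 27 for the 30 lower in the carinated margin. With the replicate block, whose numbers do not pair the head, the 30 became 51, 25.4% beside 21.2% of all transcripts. Among the paired tissues, against the dorsal prothorax, the replicate block gave 29 higher and 59 lower for the wing. These were 14.4% and 29.4%, beside 17.4% and 14.1% of all transcripts. For the carinated margin it gave 29 and 9, 14.4% and 4.48% beside 9.57% and 6.03%. The cause of these shifts was not tested, beyond fewer members or samples entering the fits. The other counts stayed within 1.5 times. With total counts the log2 median over all tested transcripts shifted by -0.13, -0.26, 0.37 and 0.24 in the 4 contrasts, wing and carinated margin against the dorsal prothorax and then against the head. The share of calls that were higher went from 55.3%, 61.9%, 42.6% and 45.3% to 39.2%, 23.7%, 74.4% and 67.3%, and with RLE size factors to 45.3%, 50.3%, 47% and 51.7%. Members lower in the wing outnumbered those higher under each of these scalings, at 55 to 22 and 60 to 20 with total counts. Against the dorsal prothorax these were 27.4% lower and 10.9% higher, beside 13.5% and 8.69% of all transcripts. Against the head they were 29.9% and 9.95%, beside 8.08% and 23.5%. Of 224 pairs of a named transcript and an alternative, 186 kept direction and call, 37 lost the call and 1 reversed, XM_023044814.1 in the carinated margin against the head at -0.98 log2 units with its gene's transcripts summed. The rule gave 172 members with TMM-scaled CPM (169 of them among the 205), 183 with RLE scaling (176), 186 with medians (165), 247 at 3-fold, 143 at 6-fold, 282 from 5 CPM, 149 from 20 CPM, 219 without the horn bound and 180 to 211 without any one replicate.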

Other observations

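The horn bound left out 14 transcripts that met the level and fold bounds. For 13 of them the horn mean was 2.02 to 16.7 times the highest of the 6 remaining tissues. XM_023055928.1 (LOC111422712) held 485 CPM in the support structures, 85.2 CPM in the horn and 24.6 to 42.2 CPM elsewhere. XM_023051267.1 (LOC111418646) held 349 CPM and 70.7 CPM, and XM_023053839.1 (no gene matched) 143 CPM and 1.43 CPM with 0.043 to 0.109 CPM elsewhere.

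The remaining transcript of the 14, XM_023051881.1 (LOC111419116), was found in the support structures and in no other tissue. It held 10.6, 14.8, 22.0, 19.2, 12.4 and 17.6 CPM in support structure replicates 1 to 6 and had 0 counts in all 42 other libraries. It was left out because a horn mean of 0 is not under 2 times a highest mean of 0.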
